A study of Homo sapiens with 4 samples.

Results

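SR proteins and heterogeneous nuclear ribonucleoproteins (hnRNPs) are the abundant RNA-binding proteins that steer pre-mRNA splicing, and their transcripts were followed here across the loss of TXNDC9, a thioredoxin-like protein. The 42 genes were taken by their symbols and not by a rule on their values, although earlier results of these data were known. They comprise 13 SR and SR-like splicing factors, 3 serine- and arginine-rich matrix proteins, 6 kinases of SR proteins and 20 hnRNPs. They are 42 of the 57979 table rows that hold values, and all 42 were among the 13246 rows with a mean above 1 FPKM (fragments counted on a gene relative to transcript length and library size, a level per length) that were compared between the groups. The 4 libraries held polyadenylated RNA of cells labelled HepG2, a human liver cancer line grown in DMEM with fetal bovine serum. The wild-type group had 2 libraries, and the TXNDC9 knockout group had 2 libraries of cells in which CRISPR-Cas9 had been directed at the first exon of TXNDC9 with lentiCRISPRv2, a vector that carries both Cas9 and the guide. For its protein blot the study sorted infected cells that carried Cas9 with a TXNDC9 guide, or the vector without a guide, by flow cytometry. The sources used here do not say which guide the sequenced cells carried, whether they were those sorted cells or a clone, or whether the wild-type libraries came from the vector control.

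An SR protein carries 1 or more RNA recognition motifs and a tail of arginine-serine repeats. Phosphorylation of that tail by the SRPK kinases, mostly in the cytoplasm, and by the CLK kinases, in the nucleus, governs where the protein sits and whether it joins the splicing machinery. SR proteins bound to exonic enhancers usually promote use of the exon, while many hnRNPs bind silencers and oppose it, so that the balance between the families is one of the determinants of alternative splicing. Many of these genes also regulate themselves through poison exons, whose inclusion sends the transcript to nonsense-mediated decay.

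The identity of the cells was checked first. All 12 listed markers of hepatocytes and hepatoma cells were under 1 FPKM in every library, and 4 of them were at 0 in every library. ALB, the gene of albumin, stood at 0.0260, 0, 0 and 0 FPKM in wild-type replicates 1 and 2 and knockout replicates 1 and 2, and AFP, the gene of alpha-fetoprotein, at 0.262, 0.449, 0 and 0.0996 FPKM in the same order. The 4 fibroblast markers summed to between 47.5 and 51.9 FPKM in wild type and between 33.3 and 37.1 FPKM in the knockout, with 1 of the 4 under 1 FPKM in every library. The 3 endothelial markers summed to between 0.803 and 1.22 FPKM and to between 3.42 and 4.41 FPKM, and the 4 blood markers to between 3.42 and 5.34 and to between 5.96 and 7.04 FPKM, with PTPRC at 0.0445, 0.185, 0.192 and 0.134 FPKM. Of these markers 1 fibroblast and 1 endothelial gene were called higher in the knockout by the rule given below, beside 14.2% of all tested genes. Both had a wild-type mean under 1 FPKM. At the adjusted p alone, 1 other fibroblast gene fell. The HepG2 label was therefore not borne out by its defining markers, so the groups are named below only by their genotype labels. The part that a difference in the cells themselves may have in any result below was not tested, and fewer cells of a type and less RNA per cell cannot be told apart in such libraries.

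TXNDC9 itself was lower in both knockout libraries, with 35.1 and 37.3 FPKM in wild type and with 21.9 and 27.6 FPKM in the knockout. Its log2 fold change was −0.55 (standard error, SE, 0.14, and Benjamini-Hochberg (BH) adjusted p = 0.0145 in limma), which missed the threshold of 0.01, and scaling the libraries to an equal sum (TPM) turned it to 0.12. The FPKM values of a library summed to 805816 and 971102 in wild type and to 535973 and 568279 in the knockout, and the SR protein and hnRNP genes made up 1.13% and 0.924% of it in wild type and 1.43% in each knockout library. The scaling therefore decides the sign of small differences: TPM moved the all-gene median upward by 0.67 on the log2 scale. The number of reads behind each value is unknown, since the values kept no trace of single reads.

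Of the 42 SR protein and hnRNP genes, 28 did not pass the test between the groups. At an adjusted p below 0.01 in limma and a change of at least 2-fold, SRRM2 was lower and SRSF11 and SRPK2 were higher in the knockout, which is 7.14% of the 42 genes beside 29.5% of all tested genes. By direction, 1 was lower beside 15.3% of all tested genes and 2 were higher beside 14.2%. At the adjusted p alone, 7 genes fell and 7 rose, which is 33.3% of the 42 beside 50.8% of all tested genes, where 27.1% fell and 23.7% rose. At an adjusted p below 0.05, 21 of the 42 passed beside 68.2%. The genes that fell were SRRM2, HNRNPM, SRSF2, SRSF4, HNRNPD, CLK2 and CLK3, of which the last 3 had a value above 0 after rescaling to TPM. The genes that rose were SRSF11, SRPK2, SRSF10, SRRM1, HNRNPK, SRPK1 and CLK4, of which SRSF10 had a value below 0 once a trend with transcript length and GC content was removed (the length and GC correction). The groups did not overlap in 36 genes, with the knockout libraries lower in 20 and higher in 16, beside 45.9% and 40.1% of all tested genes. The median log2 fold change was −0.074 over the 42 genes and −0.088 over all tested genes. Without the length and GC correction, both shares of calls thus lay under those of the whole table, and the median lay close to that of all tested genes. After the correction the share that fell at the adjusted p lay above that of the whole table, with 17 of the 42 genes beside 19.0%. The median was then −0.11 beside −0.038.

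Without either knockout library, limma (BH-adjusted) called 0 of the 42 genes and 0 of all tested genes, with 13 and 12 of the 42 and 7129 and 7307 of all tested genes at an unadjusted p under 0.05. In those fits the spread came from the wild-type pair alone. Without wild-type replicate 1, SRSF10 and SRRM1 also passed the 2-fold limit, which made 4 genes higher. With 2 libraries a group an exact permutation test of a single gene cannot give a p below 0.33, so that each adjusted p rests on the spread that limma shares across genes.

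**Figure D1:**
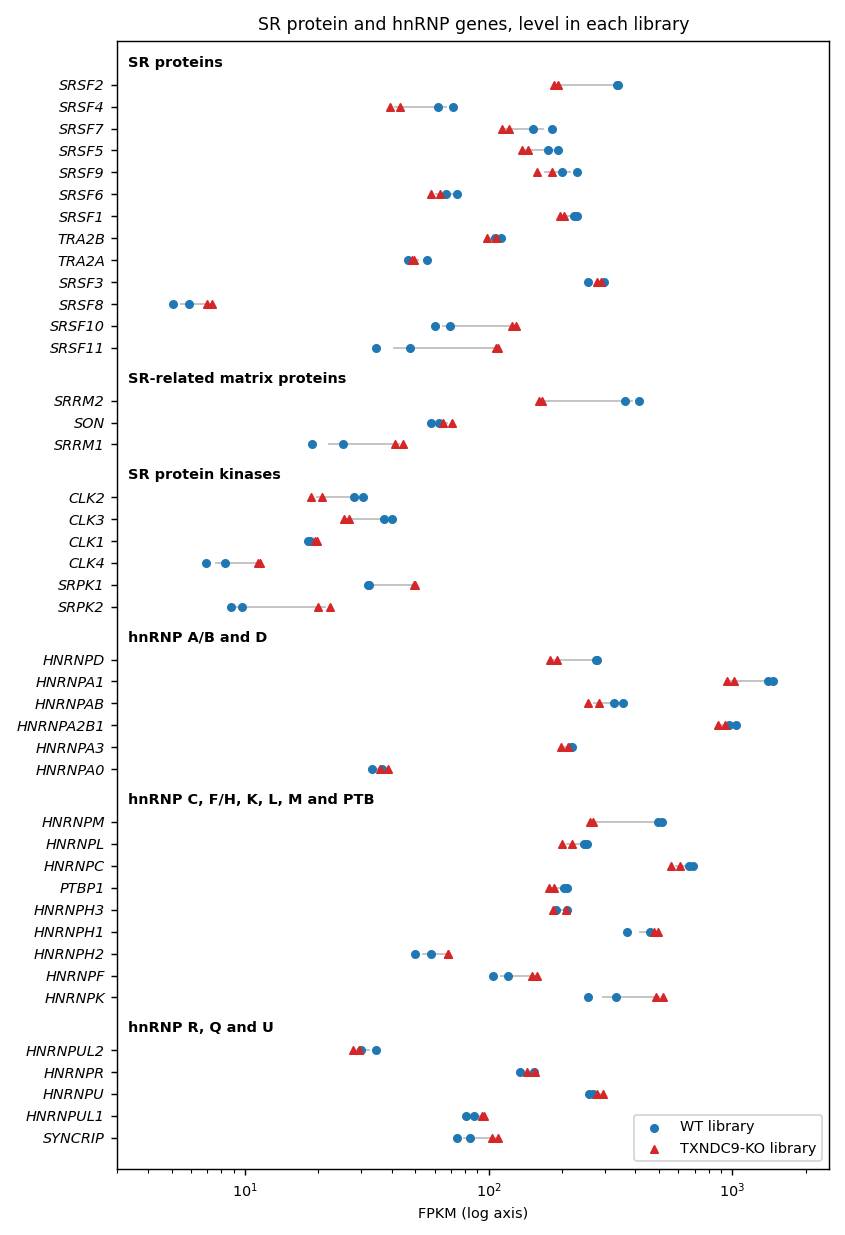
Level of each of the 42 genes in each library (x axis, FPKM, log scale), grouped by role, with blue circles for the 2 wild-type libraries, red triangles for the 2 knockout libraries and a grey line between the group means. The levels span 5.49 FPKM (SRSF8) to 1433 FPKM (HNRNPA1) in the wild-type mean, and for most genes the 4 points lie close together, with SRRM2, SRSF11 and SRPK2 spread farthest apart.

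The genes were abundant. Their wild-type means ran from 5.49 FPKM for SRSF8 to 1433 FPKM for HNRNPA1, with a median of 128 FPKM beside 11.5 FPKM over all tested genes. HNRNPA1 was followed by HNRNPA2B1 at 998 FPKM and HNRNPC at 675 FPKM, and 3 genes, SRSF8, CLK4 and SRPK2, were under 10 FPKM.

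**Figure D2:**
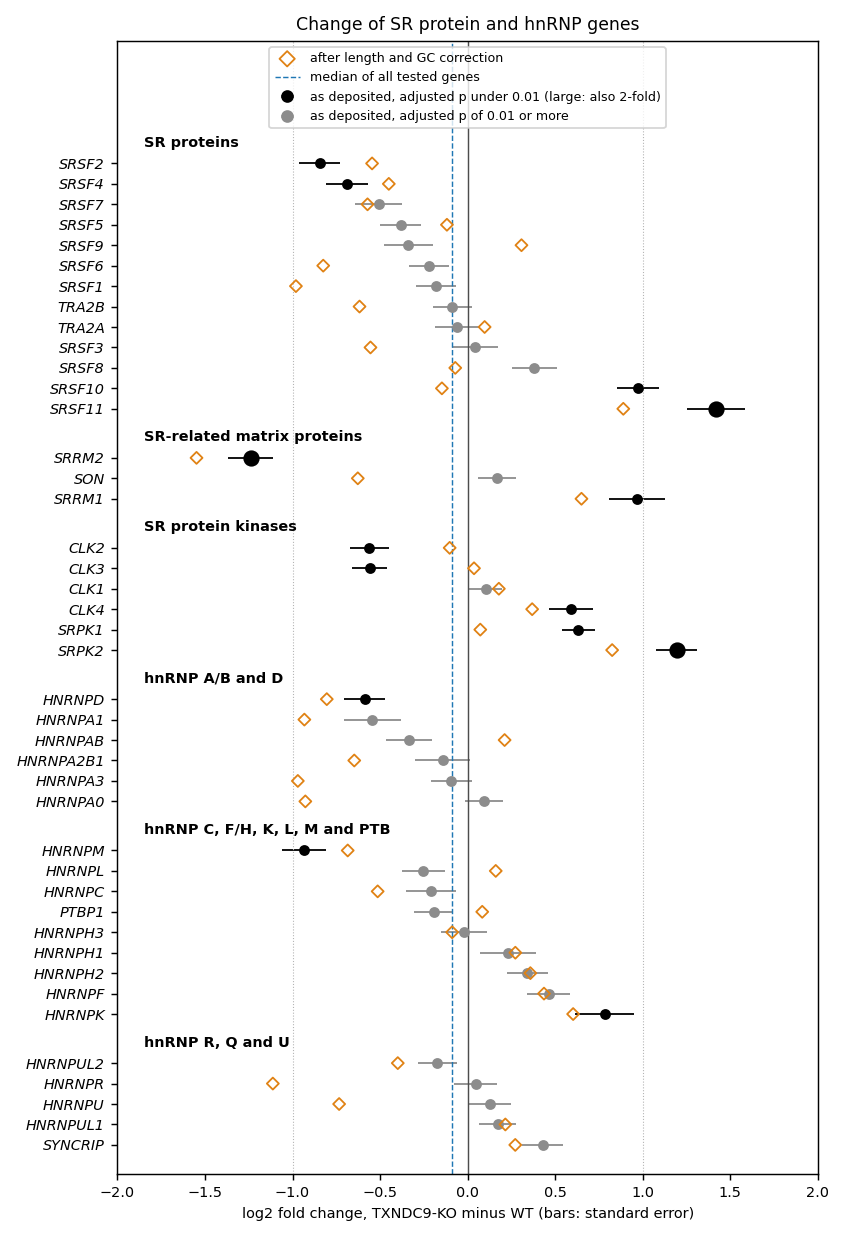
Log2 fold change of each of the 42 genes (x axis, knockout minus wild type on log2(FPKM + 0.1), bars give the standard error from limma) beside its value after the length and GC correction (open diamonds). Black points have an adjusted p below 0.01 in limma (large ones also 2-fold), grey points do not, the dashed line is the median of all tested genes (−0.088), SRRM2 lies lowest at −1.24 and SRSF11 highest at 1.42, and 13 genes lie on the other side of 0 after the correction.

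Among the 13 SR proteins, 2 rose, 2 fell and 9 did not pass the test, with a median log2 fold change of −0.18. SRSF11, an SR-related protein found with splicing factors at the 3′ splice site, was at 47.4 and 34.6 FPKM in wild type and at 108 and 109 FPKM in the knockout. The groups did not overlap, and the log2 fold change was 1.42 (SE 0.17, limma BH-adjusted p = 0.00106). It was 0.89 after the length and GC correction. SRSF10, which becomes a splicing repressor when dephosphorylated, was at 69.6 and 60.1 FPKM in wild type and at 125 and 130 FPKM in the knockout, a log2 fold change of 0.97 (SE 0.12, limma BH-adjusted p = 0.00120) that became −0.15 after the correction.

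SRSF2, also known as SC35, a nuclear SR protein that does not shuttle to the cytoplasm, was at 336 and 340.1 FPKM in wild type and at 185 and 192 FPKM in the knockout. It had the highest wild-type level of the SR proteins, and its log2 fold change was −0.84 (SE 0.12, limma BH-adjusted p = 0.00170). SRSF4, one of the large SR proteins with 2 RNA recognition motifs, was at 71.4 and 62.3 FPKM in wild type and at 39.5 and 43.2 FPKM in the knockout, and its log2 fold change was −0.69 (SE 0.12, limma BH-adjusted p = 0.00365). After rescaling to TPM the log2 fold changes were −0.16 for SRSF2 and −0.010 for SRSF4.

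The other SR proteins stayed short of the threshold. SRSF1, the best known of the family and a shuttling activator of exon inclusion, was at 230.2 and 223 FPKM in wild type and at 197 and 203 FPKM in the knockout, with a log2 fold change of −0.18. SRSF3, the smallest classical SR protein, overlapped between the groups, with 257 and 297 FPKM in wild-type libraries against 289 and 279 FPKM in the knockout. SRSF7, which like SRSF3 has been tied to mRNA export, stood at 152 and 182 FPKM in wild type and at 113 and 121 FPKM in the knockout, a log2 fold change of −0.51 (SE 0.13, limma BH-adjusted p = 0.0172). SRSF5, SRSF6 and SRSF9 had log2 fold changes of −0.38, −0.22 and −0.34, each with both knockout values below both wild-type values. SRSF8, an intronless relative of SRSF2 with the lowest level in the family, was at 5.08 and 5.89 FPKM in wild type and at 6.97 and 7.35 FPKM in the knockout, with a log2 fold change of 0.38. TRA2A and TRA2B, the vertebrate homologues of the fly sex-determination factor transformer-2, overlapped between the groups and had log2 fold changes of −0.060 and −0.088.

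The 3 matrix proteins did not move together, since 1 fell, 1 rose and 1 did not pass the test. SRRM2, a scaffold of nuclear speckles, was at 362 and 412 FPKM in wild type and at 161 and 166 FPKM in the knockout. Its log2 fold change of −1.24 (SE 0.13, limma BH-adjusted p = 7.88e-04) was the lowest of the 42 genes, and it remained below 0 after the length and GC correction, at −1.55, and after TPM, at −0.56. SRRM1, a splicing coactivator that bridges SR proteins and the snRNPs, was at 25.3 and 18.8 FPKM in wild type and at 41.1 and 44.5 FPKM in the knockout, a log2 fold change of 0.97 (SE 0.16, limma BH-adjusted p = 0.00325). SON, the other large speckle scaffold, was at 62.5 and 58.3 FPKM in wild type and at 65.1 and 70.5 FPKM in the knockout, with a log2 fold change of 0.17 that turned to −0.63 after the correction.

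The exons of SRRM2 share 407 bases with those of ELOB, a subunit of elongin that the table lists under its older symbol TCEB2, on the opposite strand. ELOB was at 343 and 520.2 FPKM in wild type and at 134 and 141 FPKM in the knockout, a log2 fold change of −1.62, lower like SRRM2. Whether the reads were assigned by strand is not given in the sources used here, so reads of the 2 genes in the shared stretch cannot be told apart. The same holds for SRSF2 and MFSD11, which share 823 exonic bases on opposite strands and where MFSD11 was at 134 and 91.7 FPKM in wild type and at 58.8 and 50.4 FPKM in the knockout, and for SRPK2 and KMT2E below. It also holds for further genes, among them HNRNPA3 with NFE2L2 (3509 shared bases), HNRNPU with COX20 (3502) and HNRNPA2B1 with CBX3 (368), all on opposite strands. HNRNPUL2 shares 2391 bases with HNRNPUL2-BSCL2 on the same strand, where assignment by strand would not separate the reads. Neighbours did not always share the direction of the gene: COX20 had a log2 fold change of −1.90 opposite HNRNPU at 0.13, and EDC3 one of 0.49 opposite CLK3 at −0.56.

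Of the 6 kinases, 3 rose, 2 fell and 1 did not pass the test, and the median log2 fold change was 0.35. SRPK2 was at 9.70 and 8.74 FPKM in wild type and at 22.4 and 20.0 FPKM in the knockout, a log2 fold change of 1.19 (SE 0.12, limma BH-adjusted p = 6.96e-04) that was 0.83 after the length and GC correction. SRPK1, its more abundant paralogue, was at 32.0 and 32.2 FPKM in wild type and at 49.5 and 50.1 FPKM in the knockout, a log2 fold change of 0.63 (SE 0.095, limma BH-adjusted p = 0.00226) that became 0.072 after the correction. KMT2E, whose exons share 369 bases with SRPK2 on the opposite strand, was at 3.48 and 2.54 FPKM in wild type and at 15.3 and 14.7 FPKM in the knockout. Both SRPK genes thus had higher levels in the knockout, and after the correction SRPK2 alone of the kinases passed the threshold.

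Of the 4 CLK kinases, 2 fell (with values above 0 after TPM), 1 rose and 1 did not pass the test. CLK2 was at 30.4 and 27.9 FPKM in wild type and at 18.7 and 20.8 FPKM in the knockout, a log2 fold change of −0.56 (SE 0.11, limma BH-adjusted p = 0.00588). CLK3 was at 37.1 and 40.1 FPKM in wild type and at 25.5 and 26.7 FPKM in the knockout, likewise −0.56 (SE 0.10, limma BH-adjusted p = 0.00443), and both genes turned to 0.12 after TPM. CLK4 rose from 8.25 and 6.93 FPKM to 11.3 and 11.6 FPKM, a log2 fold change of 0.59 (SE 0.13, limma BH-adjusted p = 0.00787). CLK1, the closest relative of CLK4, was at 18.1 and 18.4 FPKM in wild type and at 19.8 and 19.4 FPKM in the knockout, with a log2 fold change of 0.10. After the length and GC correction the 4 CLK values lay between −0.10 (CLK2) and 0.37 (CLK4), with 0 past the threshold of limma and 1 at an unadjusted p under 0.05.

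Of the 6 hnRNP A/B and D genes, 1, HNRNPD, fell and 5 did not pass the test. Their median log2 fold change was −0.24, with 5 of 6 below 0 beside 53.4% of all tested genes, and after TPM the median was 0.44 with all 6 above 0. HNRNPD, also called AUF1, a protein that binds AU-rich elements and governs mRNA decay, was at 277 and 276 FPKM in wild type and at 178 and 191 FPKM in the knockout, a log2 fold change of −0.59 (SE 0.12, limma BH-adjusted p = 0.00626) that turned to 0.094 after TPM. HNRNPA1, the best studied splicing repressor of the family, was at 1402 and 1464 FPKM in wild type and at 948 and 1016 FPKM in the knockout. The groups did not overlap, but the log2 fold change of −0.55 (SE 0.16, limma BH-adjusted p = 0.0270) missed the threshold. HNRNPA2B1, its closest relative, was at 1029.8 and 966 FPKM in wild type and at 876 and 931 FPKM in the knockout, with a log2 fold change of −0.14. HNRNPA3 and HNRNPAB had log2 fold changes of −0.092 and −0.33, and HNRNPA0, an intronless member of the family, overlapped between the groups at 0.092. After the length and GC correction, HNRNPA0, HNRNPA1, HNRNPA2B1, HNRNPA3 and HNRNPD passed the threshold as lower, with log2 fold changes between −0.97 and −0.65, and HNRNPAB was at 0.21. HNRNPA1 and HNRNPA3 have 74 and 16 processed or other pseudogenes that carry their name in the annotation, and how reads shared with these copies were assigned is not given in the sources used here, so both levels are uncertain, as are those of HNRNPC, HNRNPK and SRSF3, which have 9, 5 and 5 such copies.

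Among HNRNPC, the HNRNPF and HNRNPH genes, HNRNPK, HNRNPL, HNRNPM and PTBP1, 1 rose, 1 fell and 7 did not pass the test. HNRNPM, a splicing regulator that binds GU-rich sequence, was at 493 and 516 FPKM in wild type and at 260 and 267 FPKM in the knockout. Its log2 fold change was −0.94 (SE 0.13, limma BH-adjusted p = 0.00156), −0.68 after the length and GC correction and −0.26 after TPM. HNRNPK, which binds C-rich RNA through KH domains, was at 332 and 255 FPKM in wild type and at 484 and 517 FPKM in the knockout, a log2 fold change of 0.78 (SE 0.17, limma BH-adjusted p = 0.00856).

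The remaining genes of this group stayed short of the threshold. HNRNPF, which binds G-runs, was at 120.2 and 104 FPKM in wild type and at 151 and 158 FPKM in the knockout, a log2 fold change of 0.46 (SE 0.12, limma BH-adjusted p = 0.0179). HNRNPH1 and HNRNPH2, its close relatives, had log2 fold changes of 0.23 and 0.34 without overlap between the groups, and HNRNPH3 overlapped at −0.021. HNRNPC, which binds U-rich stretches and coats nascent transcripts, was at 688 and 663 FPKM in wild type and at 560 and 609 FPKM in the knockout, with a log2 fold change of −0.21. PTBP1, the polypyrimidine tract binding protein and a classical repressor of exons, was at 209 and 204 FPKM in wild type and at 176 and 185 FPKM in the knockout, with a log2 fold change of −0.19, and HNRNPL, which binds CA repeats, had one of −0.25.

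Of the 5 hnRNP R, Q and U genes 0 passed the test of limma and 1, SYNCRIP, had an unadjusted p under 0.05, with log2 fold changes between −0.17 (HNRNPUL2) and 0.43 (SYNCRIP) and a median of 0.13. SYNCRIP, which is hnRNP Q, was at 83.9 and 74.1 FPKM in wild type and at 103 and 109 FPKM in the knockout, and HNRNPR, its paralogue, overlapped between the groups with 154, 135, 143 and 154 FPKM. HNRNPU, a scaffold attachment factor, was at 268 and 258 FPKM in wild type and at 279 and 295 FPKM in the knockout, with a log2 fold change of 0.13, and HNRNPUL1 had one of 0.17. HNRNPR moved farthest in the correction for length and GC content, from 0.045 to −1.11, past the threshold and the 2-fold limit.

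Because the scaling of a library cancels within it, the share of each gene in the summed FPKM of its family was also compared. The 13 SR proteins summed to 1818 ± 53.2 FPKM in wild type and 1598 ± 48.6 FPKM in the knockout (mean ± SD, n = 2 each), the 6 kinases to 135 ± 0.892 and 148 ± 0.898 FPKM, and the 20 hnRNPs to 6614 ± 166 and 5890.1 ± 269 FPKM. Within the SR proteins the share of SRSF2 went from 18.6% to 11.8%, that of SRSF10 from 3.58% to 7.96% and that of SRSF11 from 2.26% to 6.80%. Within the kinases CLK3 held the largest share in wild type, at 28.6%, and 17.7% in the knockout, where SRPK1 held the largest share at 33.6%, from 23.8% in wild type. SRPK2 went from 6.83% to 14.3% and CLK2 from 21.6% to 13.3%. The length and GC correction, which shares of FPKM do not include, took the log2 fold changes of CLK3, CLK2 and SRPK1 to 0.036, −0.10 and 0.072 and that of SRSF10 to −0.15. Among the hnRNPs HNRNPA1 held 21.7% in wild type and 16.7% in the knockout, HNRNPM 7.63% and 4.48%, and HNRNPK 4.43% and 8.50%. SRRM2 made up 82.4% of the sum of the 3 matrix proteins in wild type and 59.7% in the knockout. These shares are descriptions without a test.

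**Figure D3:**
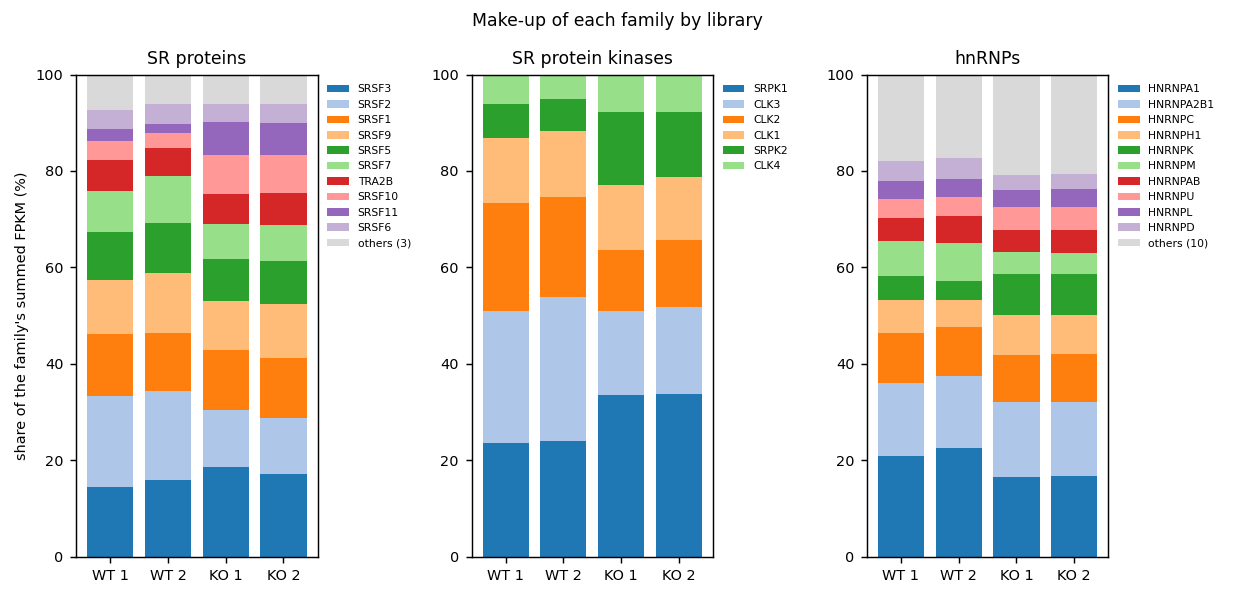
Share of each gene in the summed FPKM of its family (percent, stacked bars) in each of the 4 libraries, for the SR proteins, the kinases and the hnRNPs. The 2 libraries of a group look alike, SRSF11 takes 2.26% of the SR protein sum in wild type and 6.80% in the knockout, and SRPK1 takes the place of CLK3 as the largest share of the kinases.

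Paralogues were set side by side as log2 ratios within each library for 15 pairs chosen by family after the values had been seen. In 3 pairs the mean ratio differed by at least 1 between the groups, and in 1 of them, SRRM1 to SRRM2, it also did after the length and GC correction (2.20, beside 0.48 for SRSF8 to SRSF2 and 0.33 for CLK4 to CLK3). The ratio of SRRM1 to SRRM2, which are not close paralogues but share the matrix protein name, was −3.83 and −4.44 in wild type and −1.97 and −1.90 in the knockout. SRSF8 to SRSF2 was −6.02 and −5.83 in wild type and −4.71 and −4.69 in the knockout, and CLK4 to CLK3 was −2.16 and −2.51 against −1.17 and −1.20. CLK4 was set against CLK3 and not against CLK1, its closest relative, so this pair joins a gene that rose with one that fell. The ratios of CLK4 to CLK1 and of CLK2 to CLK3 were not formed. The log2 fold changes were 0.59 for CLK4 and 0.10 for CLK1, and −0.56 for both CLK2 and CLK3. In 4 pairs the difference was under 0.3, and the ratios overlapped between the groups for SRSF1 to SRSF9 and for TRA2A to TRA2B, at −0.997, −1.19, −0.98 and −1.14 for the latter. The ratio of HNRNPA1 to HNRNPA2B1 was 0.45 and 0.60 in wild type and 0.11 and 0.13 in the knockout, and that of HNRNPR to SYNCRIP 0.87 and 0.86 against 0.47 and 0.50. The correction brought the difference of HNRNPR to SYNCRIP from −0.38 to −1.38 and that of SRSF1 to SRSF9 from 0.16 to −1.29.

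Across the table the fold change went with transcript length and base composition. The SR proteins showed both trends, and the hnRNPs showed little of the trend with length. Spearman's rho between the log2 fold change and the length of the canonical transcript was 0.30 over the 42 genes and 0.49 over 13112 tested genes, and that with the GC content was −0.40 and −0.46. Genes are not independent replicates and share the 4 libraries, so these correlations are descriptions. Of the 11 genes with a GC content above 50%, 10 (90.9%) lay below 0, beside 73.2% of all tested genes of that class, with a median of −0.34, and 5 fell and 0 rose at the adjusted p of limma (6 lower and 0 higher at an unadjusted p under 0.05). Of the 31 genes at or below 50%, 13 (41.9%) lay below 0, beside 36.5%, with a median of 0.092, and 7 rose and 2 fell. Over all tested genes the medians of the same classes were −0.55 and 0.33, so both classes of the 42 genes leaned as the table did. Genes past the adjusted p were not counted by class over all tested genes, so the counts of falls and rises have no share beside them. Within the 13 SR proteins rho was 0.53 with length and −0.59 with GC content, and within the 20 hnRNPs it was 0.053 and −0.23.

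A loess correction for length and GC content in each library changed which genes passed. After it, 17 of the 42 genes fell, a larger share than the 19.0% of all tested genes, and SRSF11 and SRPK2 rose beside 13.2%. SRRM2 and HNRNPR passed as at least 2-fold lower beside 7.24%, and 0 genes as at least 2-fold higher, with 11 higher and 19 lower at an unadjusted p under 0.05 in limma. The median log2 fold change was then −0.11 over the 42 genes and −0.038 over all tested genes. SRRM2, HNRNPM, SRSF2, HNRNPD, SRSF11 and SRPK2 passed the adjusted p in the same direction with and without the correction. Corrected values of the 42 genes had a rho of −0.51 with transcript length, beside 0.082 over all tested genes. SRRM2, with a canonical transcript of 9044 bases and a GC content of 56.0%, is both long and GC-rich.

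**Figure D4:**
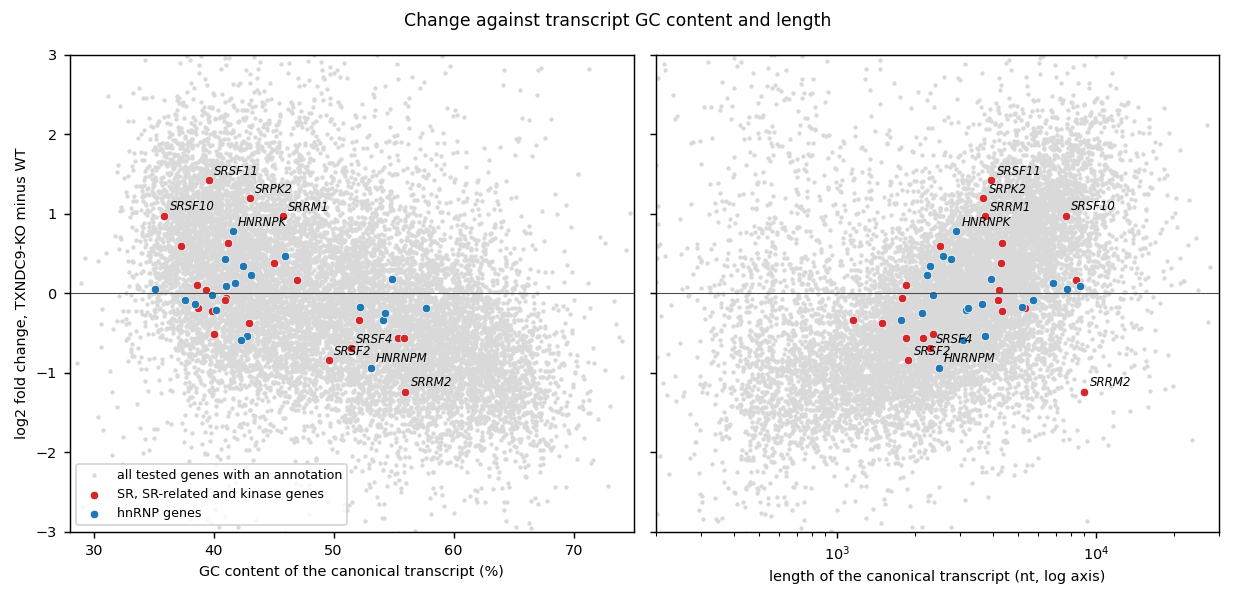
Log2 fold change (y axis, knockout minus wild type) against GC content in percent and against transcript length in bases (log scale) for the tested genes in grey, the SR, SR-related and kinase genes in red and the hnRNP genes in blue. Over all 42 coloured points rho is −0.40 with GC content and 0.30 with length, the blue points alone have a rho of 0.053 with length, and 204 of the 13112 genes lie outside the axes.

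The coding sequences of the SR proteins were not alike in composition. Arginine can be written with the GC-rich codons CGN or with AGA and AGG. Over the whole coding sequence, CGN made up 79.2% of the arginine codons of SRSF2. It made up 39.2% of those of SRSF10 and 35.5% of those of SRSF11. The 90-base coding window richest in arginine and serine codons within 1 exon is printed for SRSF2, which fell, and for SRSF10 and SRSF11, which rose (SRSF10 with a value below 0 after the length and GC correction). They were chosen after their values were seen. Each is read 5′ to 3′ on the gene's strand from hg38, with CGN codons in capitals. That of SRSF2 lies in exon 2 of 3 at chr17:76736371-76736460 on the minus strand, with 70% GC. That of SRSF10 lies in exon 4 of 6 at chr1:23971888-23971977 on the minus strand, with 42.2% GC. That of SRSF11 lies in exon 8 of 12 at chr1:70244685-70244774 on the plus strand, with 54.4% GC.
SRSF2: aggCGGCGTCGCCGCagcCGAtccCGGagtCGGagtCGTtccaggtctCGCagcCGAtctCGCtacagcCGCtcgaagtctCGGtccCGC
SRSF10: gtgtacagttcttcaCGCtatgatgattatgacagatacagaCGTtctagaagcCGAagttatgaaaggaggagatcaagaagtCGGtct
SRSF11: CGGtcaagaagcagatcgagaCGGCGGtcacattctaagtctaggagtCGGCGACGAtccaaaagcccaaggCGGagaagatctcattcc

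The SRSF2 window holds 14 CGN codons, that of SRSF10 4 and that of SRSF11 7. The window of SRSF4, the other SR protein that fell, is not printed and holds 4 CGN codons at 52.2% GC. Over the 13 SR proteins the rho between the log2 fold change and the share of CGN among arginine codons was −0.40, a weak relation with exceptions such as SRSF8 (77.8% CGN, log2 fold change 0.38), SRSF7 (41.4%, −0.51) and SRSF5 (46.4%, −0.38).

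The study examined MYC, a transcription factor that binds the E-box CACGTG, so the promoters were searched for these letters, which read the same on both strands. The windows run from 250 bases before to 50 bases after the RefSeq start in GRCh38.p14, and 39 of the 42 genes had one, the others being SRSF2, TRA2A and HNRNPA1. The motif lay in 9 of the 39 windows (23.1%), beside 7.26% of all 35116 promoters and 9.63% of the 13138 promoters of tested genes. It lay in the windows of HNRNPM, HNRNPD and CLK2, 3 of the 6 genes with a window that fell (HNRNPD and CLK2 with values above 0 after TPM), and of CLK4, 1 of the 7 that rose. The motif was not counted by direction over all tested genes, so whether it goes with a fall was not tested. A match is a description of the letters and not of binding. The 30 bases around the motif are shown for HNRNPM, HNRNPD and CLK2, which fell, and not for the other genes with the motif. They are read 5′ to 3′ on the gene's strand with the motif in capitals. They lie at chr19:8444921-8444950 on the plus strand for HNRNPM, at chr4:82374001-82374030 on the minus strand for HNRNPD and at chr1:155273559-155273588 on the minus strand for CLK2.
HNRNPM: gttgcgtcgggtCACGTGggcgcgcaggcg
HNRNPD: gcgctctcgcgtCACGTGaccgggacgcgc
CLK2: caactacgtgagCACGTGgtggcgcgcgcg

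The first base of the motif lay 42 bases before the start in HNRNPM, 27 in HNRNPD and 72 in CLK2. HNRNPA3, HNRNPH2, HNRNPH3, SYNCRIP and HNRNPUL1 also held the motif and did not pass the test, with log2 fold changes between −0.092 and 0.43.

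Of 53 other splicing regulators 49 were tested, and 8 (16.3%) were called higher and 3 (6.12%) lower, beside 14.2% and 15.3% of all tested genes. At the adjusted p alone 16 rose (32.7%, beside 23.7%) and 11 fell (22.4%, beside 27.1%). The median log2 fold change was 0.23, −0.025 after the length and GC correction and 0.91 after TPM. The largest rises were those of MBNL3 (log2 fold change 2.30) and QKI (2.08), and the largest falls those of LUC7L (−1.78) and SAFB (−1.74). The third gene called lower, named after its value was seen, was SAFB2 (−1.45), and these 3 falls remained below 0 after TPM. Among 19 tested genes of transport and modification of SR proteins and hnRNPs, 3 (15.8%) were called higher and 2 (10.5%) lower, with a median of 0.34, −0.014 after the correction. DYRK1A, a kinase that phosphorylates splicing factors, had a log2 fold change of 1.69 and TNPO1, the import receptor of HNRNPA1, one of 1.62, while the third, PRPF4B, was named after its value was seen (1.09). After the correction they were at 0.88, 0.44 and 0.026, each short of a call. NXF1, the mRNA export receptor, had a log2 fold change of −1.47 and PRMT1, the main methyltransferase of hnRNP arginines, one of −1.11, and after the correction they were at −1.24 and −0.22.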

How the data were processed

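RNA-seq values of 2 wild-type and 2 TXNDC9 knockout libraries were used. The authors aligned reads with TopHat2 to hg38 and an Ensembl annotation, ignoring new junctions, and deposited the FPKM of every gene in every library, computed with Cuffdiff (Cufflinks). Tool versions, library normalization and strand setting are not given in the sources used here. The authors' averages, fold changes, p-values and q-values in the table were not used. Of 231916 lines, 57979 held values. Identifiers stood on other lines than their symbols and were put back in order, after which 56935 were found in GENCODE release 44, from which transcript lengths, GC content and overlaps were taken. Depth is unknown, so no counting intervals or detection limits are given, and the number of libraries limits the precision. The labels do not say whether libraries came from separate cultures, so p-values measure only the spread between these samples.

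log2(FPKM + 0.1) of the 13246 genes with a mean above 1 FPKM was compared with limma 3.58.1 (R 4.3.3, trend in the prior variance, no replicate block), with Benjamini-Hochberg adjustment over all of them. The pseudocount makes fold changes of low genes too small. Genes were called at an adjusted p under 0.01 and at least 2-fold, or at the adjusted p alone. "Rose" and "fell" refer to the adjusted p alone. The length and GC correction was a loess fit (span 0.3) on each library for the 13112 genes with an annotation. The 42 genes and the other lists were chosen with earlier results of these data known. All 42 genes are named, and from each other list the 2 largest falls and rises among called genes. The fit was repeated with a pseudocount of 1 or 0.01, without the filter or with a mean above 5 FPKM, with TPM, median centring, no trend, an adjusted p under 0.05, the replicate block, the correction and leaving out each library. The protein sequences of the genes were not analysed here, and 1 listed gene and 1 promoter sequence are not reported here. On data simulated for this comparison with 13112 genes, limma recovered 92% of 200 genes changed by 2 on the log2 scale, with 4 false calls. With a length and GC trend added it made 2696 false calls, and 3 after the correction. The added trend was built only from the length and GC content that the correction fits, so its removal followed from the design. Corrected values of the 42 genes still had a rho of −0.51 with transcript length. The simulated counts therefore do not show how well the correction works on the real values. Other steps used pandas 2.3.3, scipy 1.17.1, numpy 2.4.6 and matplotlib 3.10.9 in Python 3.11.15.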

Additional observations from a re-analysis of the deposited data

How the results depend on the processing

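Counts over all genes in this section are of calls, at the adjusted p of the setting and at least 2-fold, unless another rule is named. Among SR protein and hnRNP genes, a pseudocount of 1 or 0.01, no filter, a mean above 5 FPKM, no trend and an adjusted p under 0.05 changed no direction and no 2-fold call. TPM gave 0 genes called lower in limma (2 at an unadjusted p under 0.05) and 11 higher, with 1 lower and 29 higher at the adjusted p alone and a median of 0.61. Over all genes TPM called 447 lower and 4380 higher. Centring gave 2 called lower (SRRM2 and HNRNPM), 11 lower at the adjusted p alone and a median of −0.22. Over all genes it called 2601 lower and 1452 higher. The length and GC correction gave 2 called lower and 0 higher, and 17 lower and 2 higher at the adjusted p alone. Over all genes it called 949 lower and 834 higher, and at the adjusted p alone 2491 fell and 1733 rose. At the adjusted p alone no filter gave 3 lower and 4 higher, no trend 4 lower, and an adjusted p under 0.05 gave 11 higher. A mean above 5 FPKM gave 1220 higher over all genes.

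Leaving out 1 library at a time gave 0 to 1 called lower and 0 to 4 higher, 0 to 9 and 0 to 10 at the adjusted p alone, and 0 to 2633 and 0 to 2136 over all genes, with the lone library of a group assumed to vary like the other group. The counts of 0 came from leaving out either knockout library, where the smallest adjusted p of all genes was 0.0160 and 0.0232 (limma with Benjamini-Hochberg adjustment). Log2 fold changes then ran from −0.063 to 0.15 for SRSF3, −0.19 to 0.074 for TRA2A, −0.11 to 0.068 for HNRNPH3 and −0.049 to 0.14 for HNRNPR.

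The deviations of same-numbered libraries from their group means correlated at −0.0904 over 13246 genes, so no pairing by replicate number was visible. This value cannot decide whether same-numbered libraries were prepared together, since it rests on a single difference in each group. With the replicate block, 1 gene was called lower and 2 higher, with 8 lower and 8 higher at the adjusted p alone. Over all genes 2146 were called lower and 1960 higher. The block together with the correction gave 2, 0, 17, 2, 965 and 857 in the same order, and the corrected values below.

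Signs turned as follows, and the cause was not tested beyond the shift that the scaling itself gives. After TPM the log2 fold changes were 0.12 for TXNDC9, CLK2 and CLK3, 0.094 for HNRNPD, 0.14 for HNRNPA1, 0.17 for SRSF7, 0.30 for SRSF5, 0.34 for SRSF9, 0.35 for HNRNPAB, 0.43 for HNRNPL, 0.46 for SRSF6, 0.47 for HNRNPC, 0.49 for PTBP1, 0.50 for SRSF1, 0.51 for HNRNPUL2, 0.54 for HNRNPA2B1, 0.59 for HNRNPA3 and TRA2B, 0.62 for TRA2A and 0.66 for HNRNPH3. After the correction they were −1.11 for HNRNPR, −0.93 for HNRNPA0, −0.73 for HNRNPU, −0.63 for SON, −0.55 for SRSF3, −0.15 for SRSF10, −0.071 for SRSF8, 0.036 for CLK3, 0.083 for PTBP1, 0.097 for TRA2A, 0.16 for HNRNPL, 0.21 for HNRNPAB and 0.31 for SRSF9. After centring they were −0.10 for SRSF3, −0.098 for HNRNPR, −0.051 for HNRNPA0, −0.040 for CLK1 and −0.018 for HNRNPU.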

Other observations

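Nonsense-mediated decay, which degrades the poison-exon isoforms of many SR proteins, was read from 19 listed genes of that pathway and of the exon junction complex, all tested. Called genes numbered 5 lower (26.3%) and 2 higher (10.5%), beside 15.3% and 14.2% of all tested genes. At the adjusted p alone (limma with Benjamini-Hochberg adjustment) 9 fell (47.4%) and 4 rose (21.1%), beside 27.1% and 23.7%. The median log2 fold change was −0.49, −0.41 after the length and GC correction, and turned to 0.19 after TPM. The largest falls were those of GNL2, a nucleolar GTPase of ribosome assembly, at −1.74, and of SMG9, a partner of the SMG1 kinase, at −1.47. The other 3 called lower, named after their values were seen, were RBM8A (−1.40) and MAGOHB (−1.04) of the exon junction complex and the helicase gene DHX34 (−1.19), and all 5 remained below 0 after TPM. SMG1, the kinase that phosphorylates UPF1, rose by 2.09 on the log2 scale. Isoforms with and without poison exons were not analysed here.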
